A study of Mus musculus with 12 samples.

Results

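The autophagy genes described here are 10 genes of the autophagosome: the ATG8 family members Map1lc3a, Map1lc3b, Gabarap, Gabarapl1 and Gabarapl2, the initiation genes Ulk1, Wipi1 and Becn1, and the cargo receptors Nbr1 and Optn. They were taken by gene symbol from the 56748 genes of the deposited count table. Of the 10, 9 had enough reads to be tested, and Map1lc3a did not. The study used Ba/F3, a mouse pro-B cell line that needs interleukin-3 (IL-3) to survive. Each group of 3 libraries expressed the oncogenic RAS protein NRAS G12D together with ETV6 I209S P214L, ETV6 P214L, wild-type ETV6 (ETV6 WT) or ZsGreen, the fluorescent marker that served as control, and every ETV6 construct carried an IRES-ZsGreen cassette. Cells were placed in medium without IL-3, the medium was renewed on day 2 and RNA was taken on day 3, so that NRAS G12D and IL-3 loss were shared by all 4 groups. The question behind the design was whether I209S, which disrupts a nuclear export signal created by P214L, returns the transcriptome to that of ETV6 WT. The labels do not say whether libraries of a group came from separate cultures or clones, so the p-values measure the spread between these libraries, which may be technical.

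Autophagy encloses cytoplasm in a double membrane, the autophagosome, and delivers it to the lysosome. The ULK1 kinase complex and the Beclin 1 lipid kinase complex start the membrane, WIPI proteins read the lipid made there, and ATG8 proteins are coupled to the growing membrane, where receptors such as NBR1 and optineurin dock with their cargo. Loss of growth factor signalling is a classic trigger of autophagy in IL-3-dependent blood cells. Autophagic activity itself depends on protein turnover and was not measured in these RNA libraries. ETV6 is a transcriptional repressor of the ETS family, whose members bind DNA with a GGAA core.

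The libraries held between 14301683 and 18607595 counted reads. The 18S ribosomal RNA gene Rn18s took 1.35% to 5.9% of the reads, with the lowest shares in I209S P214L library 1 and ETV6 WT library 1. Of 16 pro-B and B lineage markers, 3 exceeded 1 CPM (reads per gene scaled to library size) in every group, namely Ptprc, Cd79b and Cd79a, while Igll1, Rag1, Il7r and Dntt had no read in any library. The pro-B list summed to 718 to 758 CPM in I209S P214L, 453 to 487 in P214L, 644 to 753 in ETV6 WT and 324 to 353 in ZsGreen libraries, nearly all of it Ptprc. Cd79b averaged 6.93 CPM in I209S P214L, 11.6 in P214L, 7.07 in ETV6 WT and 9.33 in ZsGreen. Cd79a averaged 1.07, 1.72, 1.34 and 1.48 CPM in the same order. Both were thus lower in I209S P214L and ETV6 WT, where the sum was higher. The 12 mast and basophil markers summed to 2439.8 to 2977 CPM in I209S P214L, 1738 to 1820.1 in P214L, 2382 to 3049 in ETV6 WT and 1791 to 1888 in ZsGreen libraries. Nearly all of this sum was Gata2 (mean 2598 CPM in I209S P214L, 1753 in P214L, 2571 in ETV6 WT and 1826 in ZsGreen), and single mast markers differed in direction: Ms4a2 averaged 0.503 CPM in I209S P214L, 3.69 in P214L, 1.22 in ETV6 WT and 3.51 in ZsGreen. Among 10 erythroid markers, the sum was 449 to 576 CPM in I209S P214L, 369 to 398 in P214L, 445 to 540.1 in ETV6 WT and 417 to 433 in ZsGreen, with Hba-a1 at a mean of 275 CPM in I209S P214L, 23.7 in P214L, 235 in ETV6 WT and 35.1 in ZsGreen. Single erythroid markers differed in direction. Tfrc averaged 178 CPM in I209S P214L, 302 in P214L, 183 in ETV6 WT and 330.0 in ZsGreen. Klf1 averaged 19.1, 40.9, 24.1 and 41 CPM in the same order. For 11 megakaryocyte markers the sum was 654 to 749 CPM in I209S P214L, 839 to 903 in P214L, 763 to 952 in ETV6 WT and 1031 to 1092 in ZsGreen. The 15 neutrophil and monocyte markers summed to 105 to 146 CPM in I209S P214L, 185 to 253 in P214L, 138 to 155 in ETV6 WT and 85.7 to 90.5 in ZsGreen libraries. In I209S P214L and ETV6 WT most of this sum was Adgre1 (mean 109 and 127 CPM, against 52 in P214L and 19.9 in ZsGreen). Lyz2 ran the other way, at 0.371 CPM in I209S P214L, 36.1 in P214L, 0.762 in ETV6 WT and 8.83 in ZsGreen. So did S100a8, S100a9, Ngp, Mpo and Prtn3. T lineage markers summed to at most 4.16 CPM and fibroblast markers to at most 0.508 CPM. The pro-B, mast and erythroid sums were thus higher in the groups in which several autophagy genes were higher. In each of these lists, single markers went the other way. The part of any of these marker lists in the autophagy results was not tested. In bulk RNA, a change in the number of cells of a type and a change in RNA per cell cannot be told apart.

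The promoters of the members that moved most are printed because ETV6 binds the GGAA core. Sequences are RefSeq promoters of build GRCm38.p6, 250 bases before to 50 bases after the gene start, written in the direction of transcription, and 8 of the 10 members matched by symbol. Capitals mark GGAA or its reverse complement TTCC. The windows are chr8:121590188-121590487 on the plus strand for Map1lc3b, chr11:69991120-69991419 on the plus strand for Gabarap, chr11:101551857-101552156 on the plus strand for Nbr1 (the upstream one of 2 starts), and chr2:5064068-5064367 on the minus strand for Optn, the member that moved the other way.
Map1lc3b: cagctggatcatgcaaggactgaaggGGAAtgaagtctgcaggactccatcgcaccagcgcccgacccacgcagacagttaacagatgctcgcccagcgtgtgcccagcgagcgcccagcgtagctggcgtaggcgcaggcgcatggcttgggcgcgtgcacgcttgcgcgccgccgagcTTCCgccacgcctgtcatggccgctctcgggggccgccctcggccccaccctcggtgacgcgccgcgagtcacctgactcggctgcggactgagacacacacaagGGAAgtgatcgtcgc
Gabarap: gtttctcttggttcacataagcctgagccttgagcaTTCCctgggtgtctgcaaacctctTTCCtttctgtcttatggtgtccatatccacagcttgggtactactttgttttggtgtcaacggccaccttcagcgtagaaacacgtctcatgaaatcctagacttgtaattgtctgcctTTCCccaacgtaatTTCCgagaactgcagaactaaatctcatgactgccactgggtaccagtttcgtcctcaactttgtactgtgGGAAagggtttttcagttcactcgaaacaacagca
Nbr1: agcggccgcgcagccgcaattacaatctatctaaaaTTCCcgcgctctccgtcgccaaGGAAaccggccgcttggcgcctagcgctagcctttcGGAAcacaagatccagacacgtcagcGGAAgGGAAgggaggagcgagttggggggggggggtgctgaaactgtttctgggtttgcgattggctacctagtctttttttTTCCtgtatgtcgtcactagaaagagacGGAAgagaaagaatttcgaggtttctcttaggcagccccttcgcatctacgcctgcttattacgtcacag
Optn: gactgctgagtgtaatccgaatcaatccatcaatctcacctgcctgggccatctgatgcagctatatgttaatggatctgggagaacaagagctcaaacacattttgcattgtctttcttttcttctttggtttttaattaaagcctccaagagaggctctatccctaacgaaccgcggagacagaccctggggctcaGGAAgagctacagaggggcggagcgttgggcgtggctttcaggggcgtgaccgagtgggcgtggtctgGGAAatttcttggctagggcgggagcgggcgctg
The core occurred 3 times in the Map1lc3b window, 5 times in Gabarap, 7 times in Nbr1 and 2 times in Optn. It is common: 96.0% of 32851 promoters of this length held at least 1 on either strand, with a median of 3 per promoter, so these counts describe the windows and do not mark a binding site. The core was searched after the values had been seen. The longer ETS sequence CCGGAAGT, searched on both strands, lay in 1 of the 8 member windows, that of Gabarapl2, and in 3.89% of all promoters. The E-box CACGTG, which the autophagy and lysosome regulators TFEB, TFE3 and MITF bind, was in none of the 8 windows and in 7.15% of all promoters. Its extended forms TCACGTGA and GTCACGTG, which contain CACGTG, were likewise in none of the 8 and in 0.974% and 2.25% of all promoters. With only 8 windows and shares this low, finding none does not set the members apart from other promoters. Of the further autophagy genes described below, 57 had a promoter entry. Among these 57, CACGTG was found for 9, TCACGTGA for 2, GTCACGTG for 6 and CCGGAAGT for 7. Whether these sequences bear on expression was not tested.

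Across the 4 groups, Map1lc3b, Gabarap, Nbr1, Becn1, Gabarapl2 and Optn differed, and Ulk1, Gabarapl1 and Wipi1 did not pass the test. That is 6 of 9 tested members, against 41.0% of all 14794 genes tested (edgeR quasi-likelihood F test, Benjamini-Hochberg adjusted p under 0.05). With ETV6 WT, 5 members rose and 1 fell relative to ZsGreen, while 37.7% of all genes changed (19.5% higher and 18.2% lower). With I209S P214L, 6 rose and 1 fell relative to ZsGreen, where 41.5% of all genes changed (20.8% higher and 20.7% lower). With P214L alone, 1 rose and none fell relative to ZsGreen, where 5.08% of all genes changed (3.47% higher and 1.61% lower). Counted by libraries, groups did not overlap for 7 members in ETV6 WT over ZsGreen (46.2% of all genes), 6 in I209S P214L over ZsGreen (47.8%) and 4 in P214L over ZsGreen (25.7%). The median log2 change of the 9 members was 0.35 with I209S P214L, 0.17 with P214L and 0.30 with ETV6 WT, each over the same ZsGreen libraries, while the medians of all genes were 0.03, 0.01 and 0.03. The authors' deposited table called the same members in the same directions, except Optn in I209S P214L over ZsGreen, which it did not call.

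**Figure D1:**
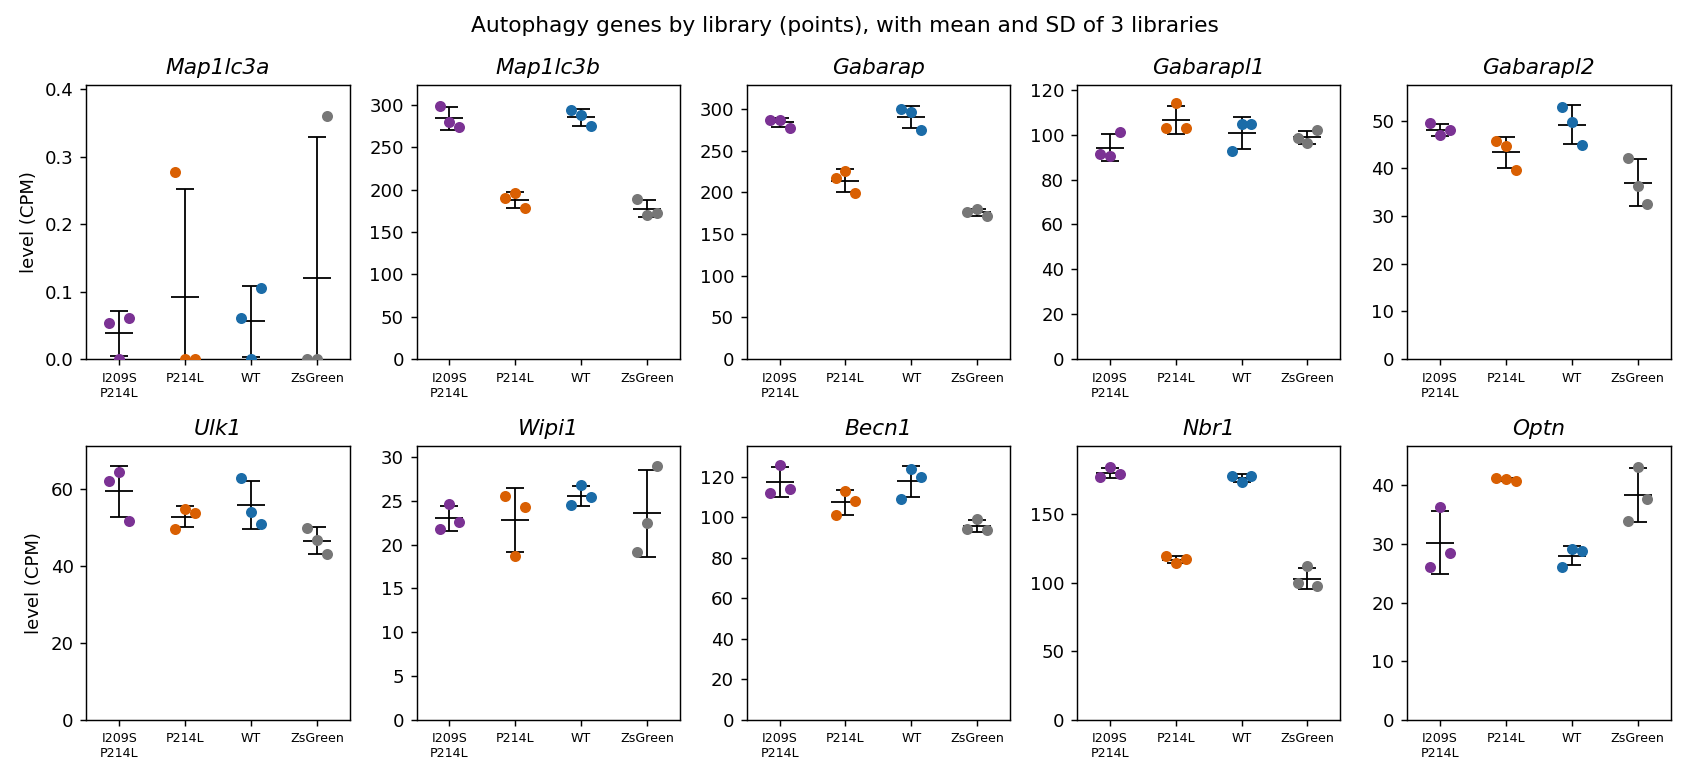
Level of each autophagy gene in CPM (y axis, from 0) in each of the 12 libraries by group (x axis); points are libraries, and bars give the mean and SD of 3 libraries. Map1lc3b formed a high pair of groups (I209S P214L and ETV6 WT) and a low pair (P214L and ZsGreen). Gabarap and Nbr1 had the same high pair, with P214L between it and ZsGreen, for Nbr1 just above ZsGreen. Optn ran the other way.

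Map1lc3b, on chr8:122317100-122325499 in build mm39, encodes LC3B, the ATG8 protein most used as an autophagosome marker. Its level was 299, 279.9 and 274 CPM in the I209S P214L libraries, 190.4, 196 and 178 CPM in P214L, 294, 288 and 275 CPM in ETV6 WT and 189, 170.4 and 173 CPM in ZsGreen. All 6 I209S P214L and ETV6 WT libraries lay above all 6 P214L and ZsGreen libraries, and within each of these pairs the groups overlapped. Map1lc3b rose 1.61-fold with ETV6 WT over ZsGreen (log2 0.69, SE 0.07, edgeR adjusted p = 2.28e-07) and 1.6-fold with I209S P214L (log2 0.68, SE 0.07, adjusted p = 2.05e-07). With P214L its log2 difference from ZsGreen was 0.08 (95% interval -0.06 to 0.22, edgeR adjusted p = 0.562). It was 1.51-fold higher in I209S P214L than in P214L (edgeR adjusted p = 1.54e-06) and 1.52-fold lower in P214L than in ETV6 WT (adjusted p = 1.63e-06). The transcript shares ground with Zcchc14 on the other strand, which held 71 reads against 46661 for Map1lc3b in all libraries together. The protocol names both directional and non-directional libraries, so whether such reads were separated by strand is not known.

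Gabarap, on chr11:69881969-69885777, encodes an ATG8 protein that also binds GABA receptors. It had 287, 287 and 277 CPM in I209S P214L, 217, 226 and 199 CPM in P214L, 299.6, 296 and 275 CPM in ETV6 WT and 176, 179.7 and 172 CPM in ZsGreen libraries. Here P214L stood alone between the high pair and ZsGreen, with no overlap on either side. Gabarap rose 1.65-fold with ETV6 WT (log2 0.72, edgeR adjusted p = 7.95e-08), 1.61-fold with I209S P214L (log2 0.69, adjusted p = 1.13e-07) and 1.22-fold with P214L (log2 0.28, adjusted p = 0.0131), each over ZsGreen. The P214L call was the weakest of these: it was lost without ZsGreen library 3, P214L library 1 or P214L library 2, with adjusted p between 0.000527 and 0.0818 over all 21 alternative analyses. I209S P214L exceeded P214L by 1.33-fold (log2 0.41, edgeR adjusted p = 7.15e-05), and P214L was 1.36-fold below ETV6 WT (adjusted p = 3.83e-05).

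Gabarapl2, which encodes the ATG8 protein also called GATE-16, followed at lower level and with smaller differences. It had 49.4, 46.9 and 48 CPM in I209S P214L, 45.7, 44.7 and 39.6 CPM in P214L, 52.9, 49.6 and 44.9 CPM in ETV6 WT and 42.2, 36.3 and 32.4 CPM in ZsGreen libraries. The I209S P214L and ETV6 WT libraries lay above those of ZsGreen, whereas the P214L libraries overlapped with ZsGreen and with ETV6 WT. Every I209S P214L library was above every P214L library (log2 0.15, edgeR adjusted p = 0.307), without passing the test. It rose 1.33-fold with ETV6 WT (log2 0.41, edgeR adjusted p = 0.00445) and 1.3-fold with I209S P214L (log2 0.38, adjusted p = 0.00721) over ZsGreen. P214L differed from ZsGreen by 0.23 (log2, adjusted p = 0.26) and from ETV6 WT by -0.18 (adjusted p = 0.221), neither past the threshold.

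Gabarapl1, the family member close in sequence to Gabarap, did not follow the others. Its levels were 91.4, 90.4 and 101 CPM in I209S P214L, 103, 114 and 103 CPM in P214L, 92.7, 105 and 105 CPM in ETV6 WT and 98.4, 96.1 and 102 CPM in ZsGreen. The log2 difference from ZsGreen was -0.07 with I209S P214L, 0.11 with P214L and 0.03 with ETV6 WT (edgeR adjusted p = 0.498, 0.486 and 0.815). The 95% interval for ETV6 WT over ZsGreen, a fold of 0.913 to 1.14, does not reach the 1.61-fold measured for Map1lc3b. Every I209S P214L library was below every P214L library (log2 -0.18, edgeR adjusted p = 0.0735), without passing the test. Gabarapl1 overlaps 1700101I11Rik on the other strand and Gm44243 on the same strand, which held 44 and 85 reads against 19858 for Gabarapl1.

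Map1lc3a, which encodes LC3A, was almost unread. It had 2 reads in I209S P214L, 4 in P214L, 3 in ETV6 WT and 6 in ZsGreen libraries, all 6 of the last in ZsGreen library 3. The ZsGreen value, 0.12 CPM, had an exact 95% Poisson interval of 0.0441 to 0.262 CPM, and the I209S P214L value, 0.0411 CPM, one of 0.00498 to 0.149 CPM, both covering counting error only. No difference was detectable at this depth.

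Counted per length, in the FPKM values that the authors deposited (fragments per kilobase, scaled to library size), Gabarap was the main ATG8 transcript in every group. The 5 family members summed to 258 ± 1.23 FPKM in I209S P214L, 210.3 ± 12 in P214L, 264 ± 7.76 in ETV6 WT and 183 ± 3.38 in ZsGreen (SD, n = 3 each). Gabarap made up 59.3% of the sum in I209S P214L, 54.5% in P214L, 59% in ETV6 WT and 51.8% in ZsGreen. Gabarapl1 made up 18.1% in I209S P214L, 25% in P214L, 18.8% in ETV6 WT and 26.7% in ZsGreen, so its share was lower where the sum was higher while its own level moved little. Map1lc3b took 14.6% in I209S P214L, 11.8% in P214L, 14.3% in ETV6 WT and 12.8% in ZsGreen.

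**Figure D2:**
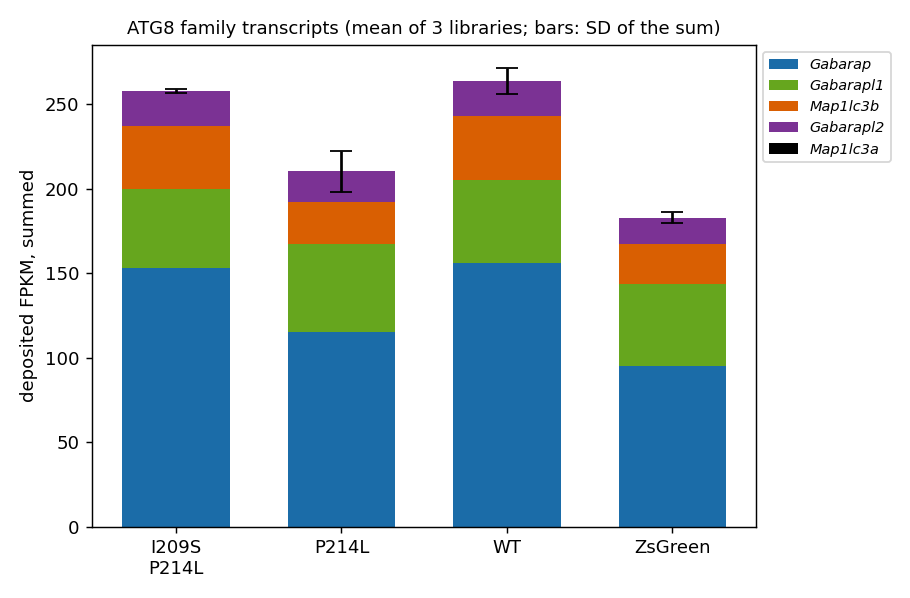
Deposited FPKM of the ATG8 family (y axis, from 0), stacked by gene as the mean of 3 libraries for each group (x axis), with the SD of the sum as an error bar. The sums were 258 in I209S P214L, 210.3 in P214L, 264 in ETV6 WT and 183 in ZsGreen, most of the difference lying in Gabarap, and Map1lc3a is too low to see.

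Among the initiation genes the differences were small. Becn1, on chr11:101176778-101193112, encodes Beclin 1, the scaffold of the autophagy lipid kinase complex. It had 112, 126 and 114 CPM in I209S P214L, 101, 113 and 108 CPM in P214L, 109, 124 and 119.9 CPM in ETV6 WT and 94.4, 98.9 and 93.8 CPM in ZsGreen libraries. All ETV6-expressing libraries lay above all ZsGreen libraries, and the 3 ETV6 groups overlapped with each other. It rose 1.23-fold with ETV6 WT (log2 0.30, edgeR adjusted p = 0.0034) and 1.23-fold with I209S P214L (log2 0.29, adjusted p = 0.00376), and its log2 difference with P214L was 0.17 (adjusted p = 0.244). The overlapping Cntd1 on the other strand held 586 reads against 21711 for Becn1.

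Ulk1 encodes the kinase that opens the autophagy cascade. Its levels were 61.9, 64.3 and 51.7 CPM in I209S P214L, 49.6, 54.8 and 53.7 CPM in P214L, 62.7, 53.9 and 50.8 CPM in ETV6 WT and 49.9, 46.6 and 43 CPM in ZsGreen. It rose 1.28-fold with I209S P214L over ZsGreen (log2 0.35, edgeR adjusted p = 0.0105), a call lost without I209S P214L library 2 (adjusted p = 0.0539). The ETV6 WT libraries also lay above those of ZsGreen, with a log2 difference of 0.26 whose adjusted p of 0.0537 missed the threshold and which passed it in 6 of 21 alternative analyses (0.0314 to 0.245). With P214L the difference was 0.18 (edgeR adjusted p = 0.395).

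Wipi1, whose product binds the lipid made by the Beclin 1 complex, was low and variable. It had 21.8, 24.6 and 22.6 CPM in I209S P214L, 25.5, 18.7 and 24.3 CPM in P214L, 24.5, 26.8 and 25.4 CPM in ETV6 WT and 19.2, 22.5 and 29 CPM in ZsGreen. The groups overlapped in all 6 comparisons, and no log2 difference was larger than 0.16 in size. The spread of ZsGreen, 21.2% of its mean, was the largest of the 9 tested members there, and the fold over ZsGreen with ETV6 WT could lie between 0.876 and 1.34 (95% interval).

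The cargo receptors went opposite ways. Nbr1, on chr11:101442975-101472777, encodes a receptor for ubiquitinated cargo that binds ATG8 proteins. It had 177, 184 and 179 CPM in I209S P214L, 119, 114 and 117 CPM in P214L, 178, 173 and 178 CPM in ETV6 WT and 99.6, 112 and 97.2 CPM in ZsGreen libraries. The high pair of groups overlapped with each other and lay far above P214L, which in turn lay just above ZsGreen. Nbr1 rose 1.75-fold with I209S P214L (log2 0.81, SE 0.07, edgeR adjusted p = 2.6e-08) and 1.71-fold with ETV6 WT (log2 0.78, adjusted p = 5.26e-08) over ZsGreen, while the 0.18 with P214L did not pass (adjusted p = 0.141). It was 1.54-fold higher in I209S P214L than in P214L (log2 0.63, edgeR adjusted p = 8.18e-07) and 1.51-fold lower in P214L than in ETV6 WT (adjusted p = 1.83e-06).

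Optn, on chr2:5025453-5068862, encodes optineurin, a receptor for damaged mitochondria and bacteria. It had 26, 36.3 and 28.4 CPM in I209S P214L, 41.2, 41 and 40.8 CPM in P214L, 26.1, 29.1 and 28.8 CPM in ETV6 WT and 34, 43.2 and 37.7 CPM in ZsGreen. The ETV6 WT libraries lay below all P214L and ZsGreen libraries, and I209S P214L library 2, the highest of its group, reached into the ZsGreen range. Optn fell 1.37-fold with ETV6 WT (log2 -0.45, edgeR adjusted p = 0.00712) relative to ZsGreen. With I209S P214L it fell 1.27-fold (log2 -0.34, adjusted p = 0.0319), a call lost in 6 of 21 alternative analyses (0.00345 to 0.153). P214L was 1.46-fold above ETV6 WT (log2 0.55, edgeR adjusted p = 0.00221), and I209S P214L was 1.36-fold below P214L (log2 -0.44, adjusted p = 0.00924; 0.0537 without I209S P214L library 1). P214L differed from ZsGreen by 0.10 (log2, edgeR adjusted p = 0.738).

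Set against ETV6 WT itself, I209S P214L changed none of the 9 members, and P214L changed 4. Of all genes, 0.0338% changed in I209S P214L (0.0135% higher and 0.0203% lower) and 29.2% in P214L (14.6% higher and 14.6% lower) against ETV6 WT. The edgeR test of I209S P214L against ETV6 WT gave 0 members at an unadjusted p under 0.05 as well, and DESeq2 and limma-voom called 0. The groups overlapped for all 9 members, whereas 8.33% of all genes had groups that did not overlap. The intervals bound how far apart the groups could be: the fold of I209S P214L over ETV6 WT lay between 0.904 and 1.1 for Map1lc3b, 0.891 and 1.07 for Gabarap and 0.928 and 1.12 for Nbr1, and between 0.898 and 1.29 for the less read Optn. P214L was lower than ETV6 WT in Map1lc3b, Gabarap and Nbr1 and higher in Optn, the same 4 genes whose groups did not overlap (45.4% of all genes). I209S P214L against P214L, which shares the P214L libraries with that comparison, changed the same 4 genes with 3 higher and 1 lower. Of all genes, 33.0% changed there (15.9% higher and 17.1% lower). ETV6 WT against ZsGreen, a pair with no library in common with I209S P214L against P214L, changed these 4 in the same directions, and also Gabarapl2 and Becn1. In I209S P214L against P214L, groups did not overlap for 6 members (48.2% of all genes).

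**Figure D3:**
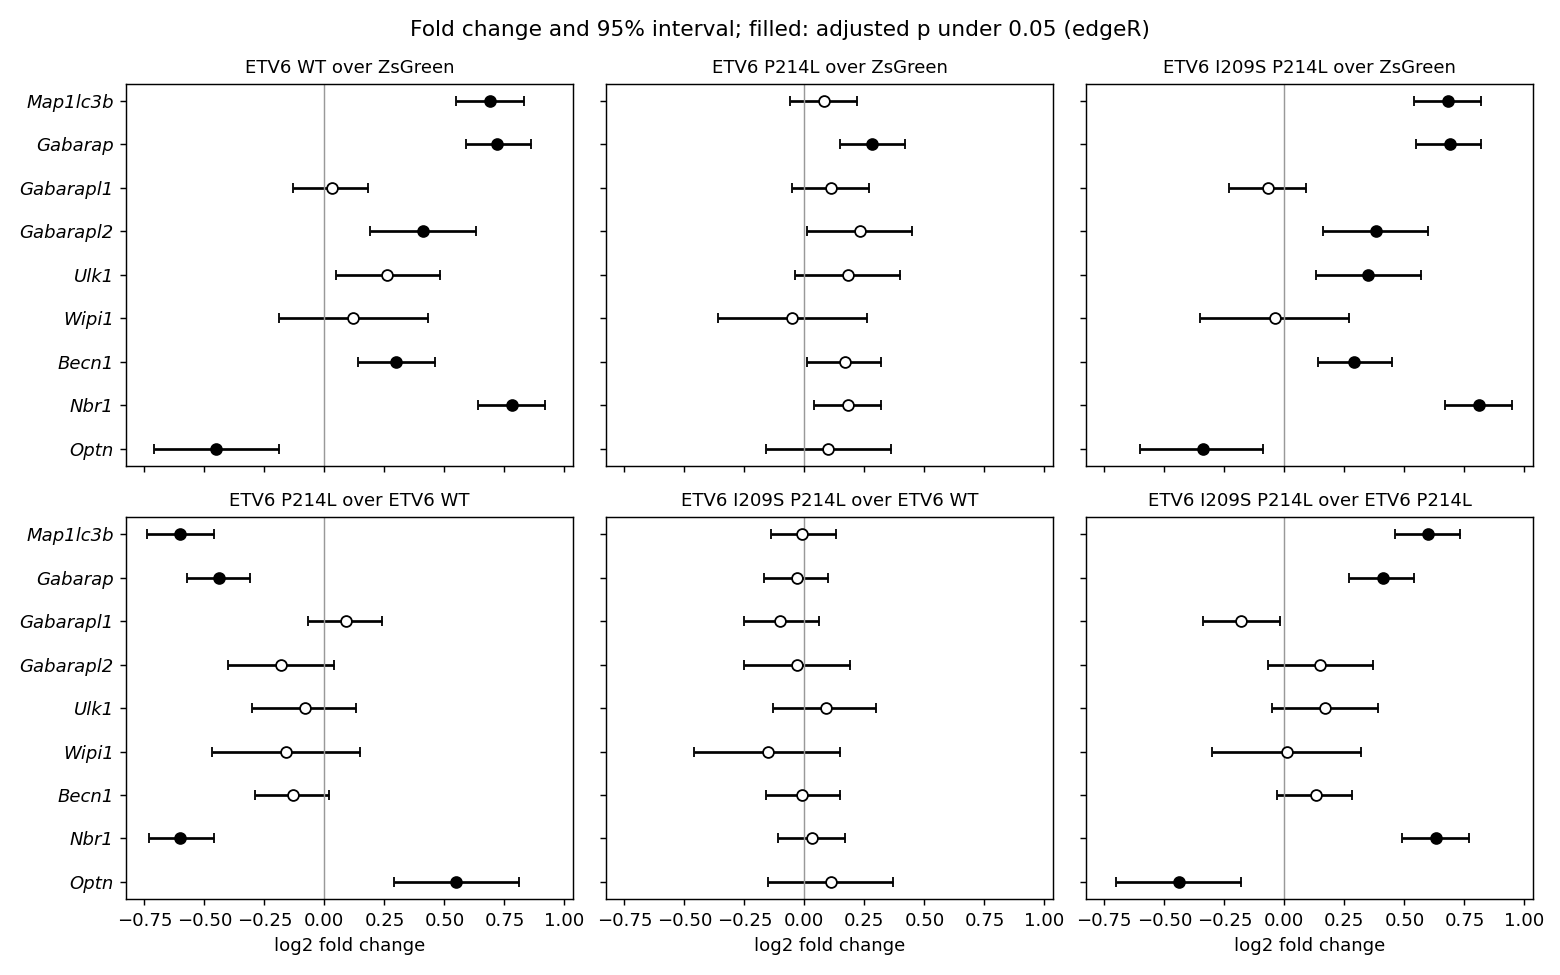
Log2 fold change (x axis) of the 9 tested autophagy genes (y axis) in the 6 comparisons, with 95% intervals; filled points have an edgeR adjusted p under 0.05. ETV6 I209S P214L over ETV6 WT shows only open points, all between -0.15 and 0.11, while ETV6 I209S P214L over ETV6 P214L has Map1lc3b, Gabarap and Nbr1 to the right of 0 and Optn to the left.

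By deposited FPKM, the order of the members was led by Gabarap, Gabarapl1 and Map1lc3b in all 4 groups. Gabarap averaged 153 ± 3.23 FPKM in I209S P214L, 115 ± 7.28 in P214L, 156 ± 6.57 in ETV6 WT and 94.8 ± 2.07 in ZsGreen (SD, n = 3 each). Nbr1 ranked above Gabarapl2 in every I209S P214L library (26.1 ± 0.796 against 20.6 ± 0.34 FPKM) and every ETV6 WT library. In P214L and ZsGreen the same pair could not be ordered, since Gabarapl2 (18.4 ± 1.38 and 15.8 ± 2.13 FPKM) and Nbr1 (16.8 ± 0.386 and 14.9 ± 1.15 FPKM) overlapped across libraries. Optn ranked above Ulk1 in P214L (10.8 ± 0.0543 against 8.02 ± 0.416 FPKM) and ZsGreen, and below it in ETV6 WT, while in I209S P214L these neighbours overlapped. Wipi1, between 5.12 and 5.73 FPKM by group, was the lowest apart from Map1lc3a. No member's group means spanned more than 1 log2 unit, the widest being Nbr1 at 0.81.

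The rest of the pathway was followed in 67 further autophagy genes in 7 roles, of which 66 were tested. With ETV6 WT, 28 rose and 3 fell relative to ZsGreen (37.7% of all genes called in either direction); with I209S P214L, 31 rose and 3 fell (41.5%). P214L raised 7 and lowered none relative to ZsGreen (5.08%). I209S P214L over P214L gave 23 higher and 4 lower (33.0%), and P214L against ETV6 WT gave 6 higher and 20 lower (29.2%). I209S P214L against ETV6 WT gave 0 by edgeR, with 3 of 66 at an unadjusted p under 0.05 and 0 by DESeq2 and limma-voom. The median log2 change of the 66 was 0.23 with I209S P214L, 0.05 with P214L and 0.26 with ETV6 WT over ZsGreen.

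**Figure D4:**
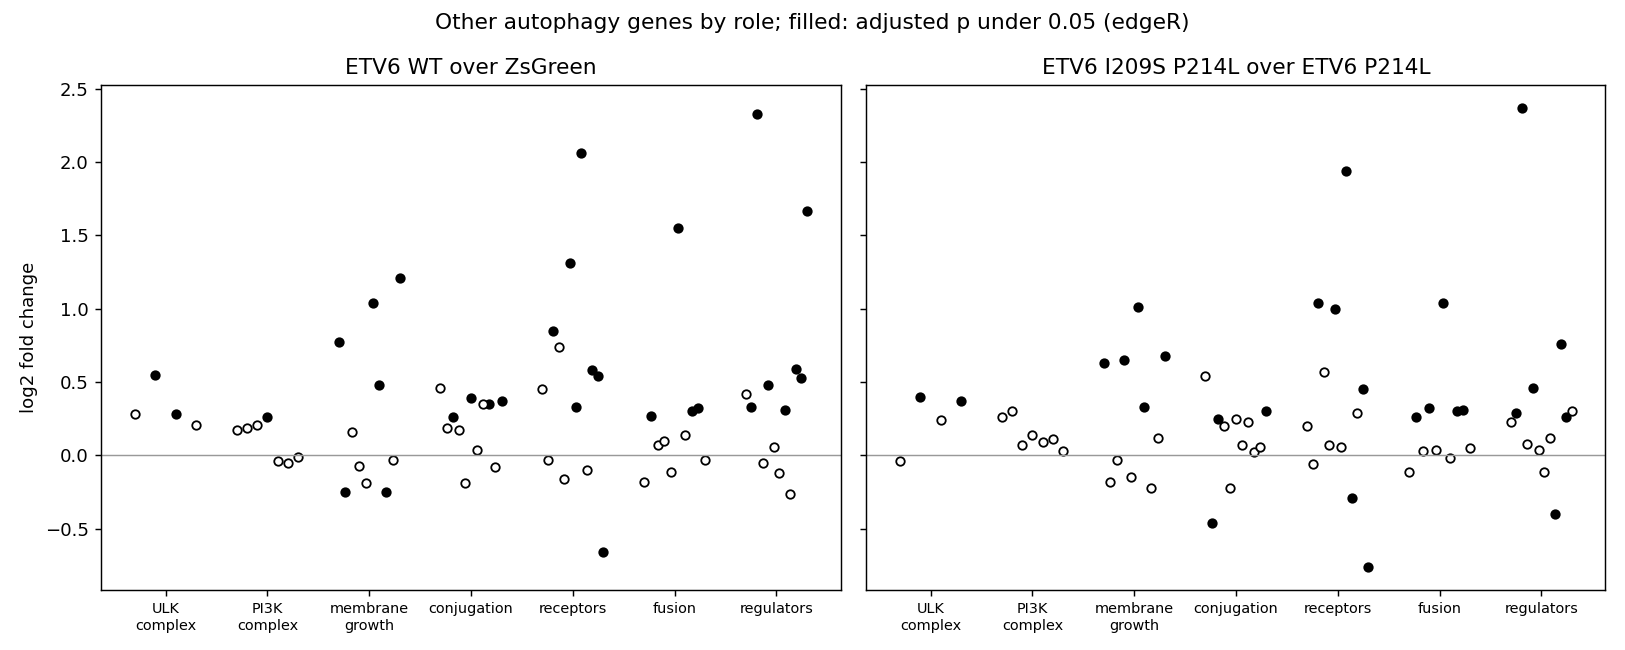
Log2 fold change (y axis) of 66 other autophagy genes by role (x axis; points in alphabetical order within a role), for ETV6 WT over ZsGreen (left) and ETV6 I209S P214L over ETV6 P214L (right), 2 comparisons with no library in common; filled points have an edgeR adjusted p under 0.05. Mitf and Sqstm1 are the highest points in both panels, and most points of the lipid kinase complex (PI3K) are unfilled.

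Among the further cargo receptors, Sqstm1 changed most. This gene, encoding the ubiquitin receptor p62, averaged 1145 ± 87.8 CPM in I209S P214L and 298 ± 21 CPM in P214L (SD, n = 3 each; log2 1.94, edgeR adjusted p = 6.4e-12). It was also higher in P214L than in ZsGreen (228 ± 20.2 CPM; log2 0.39, edgeR adjusted p = 0.00658; 0.0582 without P214L library 1). Ncoa4, the receptor for ferritin, had 725 ± 18.9 in I209S P214L, 362 ± 16.1 in P214L, 688 ± 29 in ETV6 WT and 278 ± 11.7 in ZsGreen, all in CPM. Calcoco1, a receptor for the endoplasmic reticulum and Golgi, had 119 ± 2.23 CPM in I209S P214L, 58.2 ± 1.05 in P214L, 110.3 ± 7.83 in ETV6 WT and 61 ± 2.32 in ZsGreen. Both rose with ETV6 WT (log2 1.31 and 0.85, edgeR adjusted p = 2.46e-11 and 3.58e-08), but with P214L Ncoa4 rose (0.38, adjusted p = 0.000819) and Calcoco1 did not pass (-0.07, adjusted p = 0.678). Wdfy3, encoding the adaptor ALFY, fell over ZsGreen both with I209S P214L (log2 -0.69, edgeR adjusted p = 7.3e-06) and with ETV6 WT (-0.66, adjusted p = 1.51e-05), as Optn did. Of 12 receptors tested, 6 rose and 1 fell with ETV6 WT over ZsGreen (58.3% changed, against 37.7% of all genes), and 4 rose and 2 fell in I209S P214L over P214L (50%, against 33.0% of all genes).

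Upstream of the membrane, 2 of 4 further ULK complex genes and 1 of 7 lipid kinase complex genes (14.3%) rose with ETV6 WT over ZsGreen, where 19.5% of all genes rose. Atg13, the regulatory subunit of the ULK1 complex, averaged 94.5 ± 8.7 CPM in I209S P214L, 71.7 ± 1.6 in P214L, 95.1 ± 8.92 in ETV6 WT and 65.1 ± 2.31 in ZsGreen (ETV6 WT over ZsGreen log2 0.55, edgeR adjusted p = 4.31e-05). Rb1cc1, encoding the scaffold FIP200, had a log2 change of 0.28 (edgeR adjusted p = 0.023, lost without ZsGreen library 3 or ETV6 WT library 3), and Pik3c3, the lipid kinase VPS34, one of 0.26 (adjusted p = 0.0157). For I209S P214L over P214L the ULK complex had 2 of 4 higher and the lipid kinase complex none of 7 (15.9% of all genes higher).

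Of 10 membrane growth genes, 4 rose and 2 fell with ETV6 WT over ZsGreen (19.5% and 18.2% of all genes). Vmp1, a lipid scramblase of the endoplasmic reticulum, averaged 175 ± 12 CPM in I209S P214L, 86.7 ± 2.33 in P214L, 152 ± 5.13 in ETV6 WT and 73.8 ± 6.73 in ZsGreen. It rose with ETV6 WT (log2 1.04, edgeR adjusted p = 7.99e-09) and was higher in I209S P214L than in P214L (1.01, adjusted p = 1.3e-08). Zfyve1, encoding the omegasome marker DFCP1, rose with ETV6 WT (1.21, edgeR adjusted p = 6.99e-09) and, less, with P214L (0.53, adjusted p = 0.00123) over ZsGreen. The lipid transfer gene Atg2a rose with ETV6 WT (log2 0.77, edgeR adjusted p = 5.73e-07), as did the WIPI family gene Wdr45 (0.48, adjusted p = 0.00431), and their paralogs went the other way: Atg2b by -0.25 (adjusted p = 0.0371) and Wdr45b by -0.25 (adjusted p = 0.0343). Atg2b and Wdr45b were named after their values had been seen, because only 3 genes fell, and each call was lost in 7 of 21 alternative analyses (adjusted p up to 0.146 for Atg2b and 0.13 for Wdr45b).

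The conjugation genes couple ATG8 proteins to lipid. Of 11, 4 changed with ETV6 WT over ZsGreen, a share of 36.4% beside the 37.7% of all genes. All 4 rose: Atg4a (0.39, edgeR adjusted p = 0.0416), Atg7 (0.37, 0.00831), Atg4d (0.35, 0.0213) and Atg16l1 (0.26, 0.0235). Atg4a was called in 10 of 21 alternative analyses and Atg4d and Atg16l1 in 15 each, and Atg7 was lost only without ZsGreen 1, ETV6 WT 1 and I209S P214L 1 together (adjusted p = 0.0628). Atg5 averaged 32.5 ± 1.82 CPM in I209S P214L, 31.2 ± 0.711 in P214L, 34.1 ± 5.26 in ETV6 WT and 36.2 ± 2.7 in ZsGreen and was called in none of these comparisons. Atg12, whose product is joined to ATG5, had a pattern of its own, for which it is named here after its values were seen. It averaged 102 ± 7.87 CPM in I209S P214L, 140.2 ± 7.17 in P214L, 110.0 ± 2.93 in ETV6 WT and 96.6 ± 11 in ZsGreen, and was higher in P214L than in ZsGreen (log2 0.54, edgeR adjusted p = 0.000695) and ETV6 WT (0.35, adjusted p = 0.00375).

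Of 10 genes of autophagosome fusion with the lysosome, 4 rose with ETV6 WT over ZsGreen and none fell, a share of 40% changed beside the 37.7% of all genes. Tecpr1, encoding a tethering factor, averaged 75.2 ± 10 CPM in I209S P214L, 36.7 ± 1.09 in P214L, 68 ± 7.97 in ETV6 WT and 23.2 ± 4.56 in ZsGreen. It rose with ETV6 WT (log2 1.55, edgeR adjusted p = 4.57e-08) and with P214L (0.67, adjusted p = 0.00523) over ZsGreen. Vps39 (0.30, edgeR adjusted p = 0.00555) and Vps41 (0.32, adjusted p = 0.00812), both subunits of the HOPS tether, and the adaptor Plekhm1 (0.27, adjusted p = 0.0133) rose by smaller steps with ETV6 WT. The Plekhm1 call was lost in 4 of 21 alternative analyses, among them that without ETV6 WT library 1 (adjusted p up to 0.0844), and the Vps41 call without ZsGreen library 2 (0.0535).

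Among 12 tested regulators, 7 rose and none fell with ETV6 WT over ZsGreen (58.3% changed, against 37.7% of all genes), and 5 rose and 1 fell in I209S P214L over P214L (50%, against 33.0% of all genes). Mitf, a transcription factor of the TFEB family that is also a mast cell marker on the list above, averaged 37.8 ± 2.68 CPM in I209S P214L and 7.32 ± 0.722 CPM in P214L (log2 2.37, edgeR adjusted p = 5.51e-09). In P214L it did not differ detectably from ZsGreen, at 6.87 ± 2.11 CPM (log2 0.10, edgeR adjusted p = 0.842). Its relatives split: Tfeb averaged 18.6 ± 0.711 CPM in I209S P214L and 11 ± 1.01 in P214L (log2 0.76, edgeR adjusted p = 0.00059), and Tfe3 averaged 31.4 ± 2.12 CPM in I209S P214L and 41.6 ± 2.75 CPM in P214L (-0.40, adjusted p = 0.0116; 0.0538 without P214L library 1). Trp53inp2, whose product carries LC3 out of the nucleus, was at 13.8 ± 0.928 CPM in I209S P214L, 11.2 ± 0.805 in P214L, 14.6 ± 0.922 in ETV6 WT and 4.58 ± 0.759 in ZsGreen. It rose over ZsGreen with all 3 constructs, with log2 changes of 1.60 with I209S P214L, 1.29 with P214L and 1.67 with ETV6 WT (edgeR adjusted p = 4.17e-07, 0.000101 and 2.9e-07), and I209S P214L and P214L differed by 0.30 (adjusted p = 0.152). Its relative Trp53inp1 likewise rose with I209S P214L (0.68, edgeR adjusted p = 6.27e-07), P214L (0.42, adjusted p = 0.00169) and ETV6 WT (0.53, adjusted p = 1.34e-05). Prkaa1, the catalytic subunit of the energy sensor AMPK, rose with ETV6 WT (0.48, edgeR adjusted p = 5.82e-05) and had 107 ± 6.5 CPM in P214L and 104 ± 1.75 CPM in ZsGreen (0.04, adjusted p = 0.823).

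Without ETV6 WT library 1 and I209S P214L library 1, the libraries with the lowest Rn18s share, 6 members changed with ETV6 WT over ZsGreen (37.2% of all genes in that fit) and 6 with I209S P214L over ZsGreen (41.2%). In the same fit, 4 changed in P214L against ETV6 WT (28.9%), 4 in I209S P214L over P214L (33.6%), 1 in P214L over ZsGreen (8.33%) and 0 in I209S P214L against ETV6 WT (0.0473%) by edgeR.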

How the data were processed

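Poly-A RNA of 12 libraries was sequenced. HISAT2 2.0.5, featureCounts 1.5.0-p3 and build mm39 are named in the submitters' processing notes; the annotation release and the strand setting are not given in the sources used here. The authors deposited raw read counts per gene, FPKM, and, per comparison, group-mean scores (counts scaled by the authors), log2 fold changes, p-values and gene lengths. Counts were tested; deposited FPKM was used for levels between genes; the authors' log2 changes and adjusted p-values were used only to compare calls.

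Counts were fitted with edgeR 4.0.16 (TMM factors, default expression filter, quasi-likelihood test, 1 mean per group, all 12 libraries), and p-values were adjusted by Benjamini-Hochberg over 14794 genes, with a threshold of 0.05. CPM values use TMM factors. A fold is given as its size, with the direction in words. Alternatives were DESeq2 1.42.0, limma-voom (limma 3.58.1), other scalings, no filter, 2-group fits, a replicate block and left-out libraries. On simulated counts for ETV6 WT against ZsGreen, the step recovered 67% of 100 changes of 1.5-fold and 92% of 100 of 2-fold, with 10 false calls among 14794 genes. The changed genes were drawn from the better read genes only, and no other gene was changed. In the data 37.7% of genes were called and less read genes were tested too, so these rates need not hold there. Tests run across libraries, with 3 per group, and library totals were 14301683 to 18607595 reads.

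The members, gene lists and marker lists were chosen with earlier results of these data known. All members were named. Of the other autophagy genes, up to 4 per role with the smallest adjusted p for ETV6 WT over ZsGreen were named, with Sqstm1, Atg5, Atg7, Tfeb and Tfe3 always; Atg2b, Wdr45b and Atg12 were added after their values were seen. Genes with the most similar pattern were to be named for members whose group means spanned more than 1 log2 unit, and no member did.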

Additional observations from a re-analysis of the deposited data

How the results depend on the processing

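Over 21 alternatives, every call of Map1lc3b, Gabarap and Nbr1 was kept except Gabarap in P214L over ZsGreen. With 1 library left out, the number of members called was 0 to 1 in P214L over ZsGreen (reported value 1). Among all genes, P214L over ZsGreen gave 751 calls, 377 to 978 with 1 library left out, 1188 by DESeq2 and 1232 without ETV6 WT 1 and I209S P214L 1. For I209S P214L against ETV6 WT, all genes gave 5 calls, 1 to 6 with 1 library left out, 38 without the filter, 23 by DESeq2, 3 by limma-voom, 3 in a fit of the 2 groups and 8 without ZsGreen 1, ETV6 WT 1 and I209S P214L 1; the cause was not tested. Signs turned for uncalled log2 values. With 1 library left out, these included Gabarapl1 in ETV6 WT over ZsGreen and Optn in I209S P214L against ETV6 WT. Wipi1 also turned then in ETV6 WT over ZsGreen, P214L over ZsGreen and I209S P214L over P214L. Under the other alternatives, the values that turned were near 0. These were Wipi1 in I209S P214L over ZsGreen (0.00 without ETV6 WT 1 and I209S P214L 1), Ulk1 in P214L against ETV6 WT (0.01 without the same 2 or the same 3 libraries), and, in I209S P214L against ETV6 WT, Gabarapl2 (0.01 in those same settings), Map1lc3b (0.00 without TMM, with RLE and by DESeq2) and Becn1 (0.00 with RLE and by DESeq2). Over all 21 alternatives, the log2 value ran from -0.00 to 0.08 for Gabarapl1 and from -0.01 to 0.30 for Wipi1 in ETV6 WT over ZsGreen. Wipi1 ran from -0.18 to 0.13 in P214L over ZsGreen, from -0.17 to 0.14 in I209S P214L over ZsGreen and from -0.12 to 0.09 in I209S P214L over P214L. Ulk1 ran from -0.14 to 0.01 in P214L against ETV6 WT. In I209S P214L against ETV6 WT, Map1lc3b ran from -0.04 to 0.02, Gabarapl2 from -0.09 to 0.02, Becn1 from -0.06 to 0.04 and Optn from -0.04 to 0.21. The replicate numbers were not treated as pairs in the main fit. Same-numbered libraries correlated between -0.06 and 0.53 in their deviations, with 2 of 18 pairs over 0.1. Both of these were in I209S P214L against ETV6 WT, at 0.53 for the libraries numbered 1 and 0.25 for those numbered 3. Unlike numbers reached 0.16 in the same comparison (I209S P214L 2 with ETV6 WT 3). With the replicate number as a block, the members called numbered 7 in ETV6 WT over ZsGreen (Ulk1 added), 1 in P214L over ZsGreen, 7 in I209S P214L over ZsGreen, 4 in P214L against ETV6 WT, 0 in I209S P214L against ETV6 WT and 4 in I209S P214L over P214L. Map1lc3a, with 15 reads in all libraries, could not be tested.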
